A study of Mus musculus with 30 samples.

Results

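The 3 genes of complement C1q and 7 further genes that mark tissue-resident macrophages were followed in the quadriceps of 30 mice by poly(A) RNA sequencing. The set is defined by gene symbol alone: C1qa, C1qb, C1qc, Csf1r, Adgre1, Cd163, Mrc1, Lyve1, Fcgr1 and Cx3cr1, which are 10 of the 56748 genes in the count table, each matched to a single Ensembl identifier. WT mice were untreated FVB/N animals (n = 5). All other mice carried HSA-LR20b on FVB/N, a transgene that expresses human skeletal actin with an expanded CTG repeat from a skeletal muscle promoter and serves as a model of myotonic dystrophy type 1 (DM1), so the repeat is driven in muscle fibres. NT mice were HSA-LR20b animals without treatment (n = 8). L9 is a locked nucleic acid oligonucleotide complementary to the CUG repeat, and pacDNA-L9 is L9 attached to a bottlebrush polymer with polyethylene glycol side chains. Doses are given as the mass of oligonucleotide. Among treated HSA-LR20b mice, 4 received 5.3 mg/kg of pacDNA-L9, another 3 received 21.2 mg/kg, and a further 3 were given 42.4 mg/kg. The comparison groups were free L9 at 5.3 mg/kg (n = 3), the polymer without oligonucleotide at 40 nmol (Brush, n = 2) and the polymer with a scrambled oligonucleotide at 5.3 mg/kg (pacDNA-Scr, n = 2). Injections went into the tail vein from 8 weeks of age, and muscle was taken 2 weeks after the last one. The larger doses of pacDNA-L9 were given as repeated injections, more of them at 42.4 mg/kg, so dose and number of injections cannot be told apart.

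C1q is the recognition molecule of the classical complement pathway; its A, B and C chains, each encoded by a gene of its own, assemble into 1 protein that binds immune complexes, dying cells and debris, and tissue macrophages are a main source of it. The other genes describe the cell that makes it. Csf1r encodes the receptor for CSF1 and IL-34, on which macrophages depend for survival, and Adgre1 encodes F4/80, a surface receptor that defines mouse macrophages. Cd163 encodes the scavenger receptor for haemoglobin bound to haptoglobin, Mrc1 the mannose receptor CD206 and Lyve1 a hyaluronan receptor, and the 3 are typical of macrophages that reside along vessels and connective tissue in muscle. Fcgr1 encodes the high-affinity IgG receptor, and Cx3cr1 the fractalkine receptor found on monocytes and on some resident macrophages.

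Libraries held 13605309 to 26956558 counts. The libraries fall into 2 blocks of deposition, 24 in set 1 and 6 in set 2. Set 2 holds NT 7 and 8, mice C and D of the 5.3 mg/kg group of pacDNA-L9, mouse C of its 21.2 mg/kg group and mouse C of the free L9 group. The first principal component held 60.3% of the variance. The 2 sets were known from earlier results of these data to stand apart on it, so the set was a term in the main fits. Where each of the 6 set 2 libraries lies on it is not given here. The tissue label was borne out by genes of muscle fibres, with Acta1, the skeletal actin gene, at 32700 to 53700 CPM in NT mice. Those mice carry the human actin transgene, and whether its reads were counted at Acta1 was not tested. In WT mice, without the transgene, the 6 muscle fibre markers summed to 119000 to 157000 CPM. In 5 of the 6 set 2 libraries all mitochondrial genes were at 0; the exception was free L9 C, with 1628217 mitochondrial counts against 940807 to 3745588 in set 1. Within set 1, 9 libraries carry only a group name and a running number in the count table, among them all 3 mice at 42.4 mg/kg. At equal depth these showed 14438 to 18634 genes against 18637 to 20350 in the other set 1 libraries, the lowest being free L9 B. The 3 mice at 42.4 mg/kg were also all female by their counts of sex-linked genes, against 4 of 8 NT mice. The main results that rest on these libraries are therefore given with alternatives. Levels are CPM, read counts scaled to a common library size after TMM normalisation. Differences are log2 fold changes from edgeR's quasi-likelihood fit to all 30 libraries, with their standard error (SE), and a gene is called when its Benjamini-Hochberg adjusted p over all genes tested is under 0.05. Of the 10 genes, 9 passed the filter on low counts and were among the 17518 genes tested; Fcgr1 did not.

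The C1q genes lie side by side on the minus strand of mouse chromosome 4 within 20153 bases of GRCm39: C1qb at 136606009 to 136613511, C1qc at 136616466 to 136620376 and C1qa at 136623223 to 136626161. Csf1r (ENSMUSG00000024621) lies on chromosome 18 at 61229714 to 61266535, plus strand, and 19.8% of its exon bases are shared with Hmgxb3 on the opposite strand. The kit is not stated to keep strand, so reads from the shared stretch cannot be assigned; Hmgxb3 itself stood at 19.3 CPM in NT mice and 18.3 CPM at 42.4 mg/kg (log2 fold change -0.05, SE 0.18, edgeR adjusted p = 0.985). Of the exon bases of C1qc 8.6%, and of those of C1qb 1.0%, lie opposite Gm69251, which has no entry in the count table. Adgre1 is on chromosome 17, Cd163 on 6, Mrc1 on 2, Lyve1 on 7, Fcgr1 on 3 and Cx3cr1 on 9, and at most 1.7% of the exon bases of each lie in another annotated gene.

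Exon length was the union over all annotated transcripts: 1610 bases for C1qa, 2860 for C1qc, 6246 for C1qb and 7361 for Csf1r. The order per kilobase depends on these lengths. In CPM without this division, NT means were 13.9 for Csf1r, 12.9 for C1qa, 11.5 for Mrc1, 8.01 for Cd163, 7.79 for C1qc and 6.86 for C1qb. Per kilobase of exon, C1qa was the most abundant of the genes in NT muscle, at 8.01 ± 3.2 CPM per kb (SD, n = 8). C1qc followed with 2.72 ± 1.17, Csf1r with 1.89 ± 0.325, Mrc1 with 1.47 ± 0.41, Cd163 with 1.44 ± 0.274, Lyve1 with 1.11 ± 0.305 and C1qb with 1.10 ± 0.362 CPM per kb. C1qc and Csf1r differed by less than the SD of C1qc, and Mrc1 and Cd163, like Lyve1 and C1qb, by less than either SD. The steps from Csf1r to Mrc1 and from Cd163 to Lyve1 were slightly larger than the SDs on both sides. Adgre1 was lower, at 0.332 ± 0.143 CPM per kb, and Cx3cr1 (0.0565 ± 0.0303) and Fcgr1 (0.0367 ± 0.0267) were close to the limit of detection. At 42.4 mg/kg C1qa still led with 20.4 ± 4.15 CPM per kb, followed by C1qc with 7.83 ± 1.11 (SD, n = 3). C1qb (3.97 ± 1.09), Csf1r (3.53 ± 0.527) and Cd163 (3.08 ± 0.963 CPM per kb) came next and differed by less than the SD of C1qb.

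**Figure D1:**
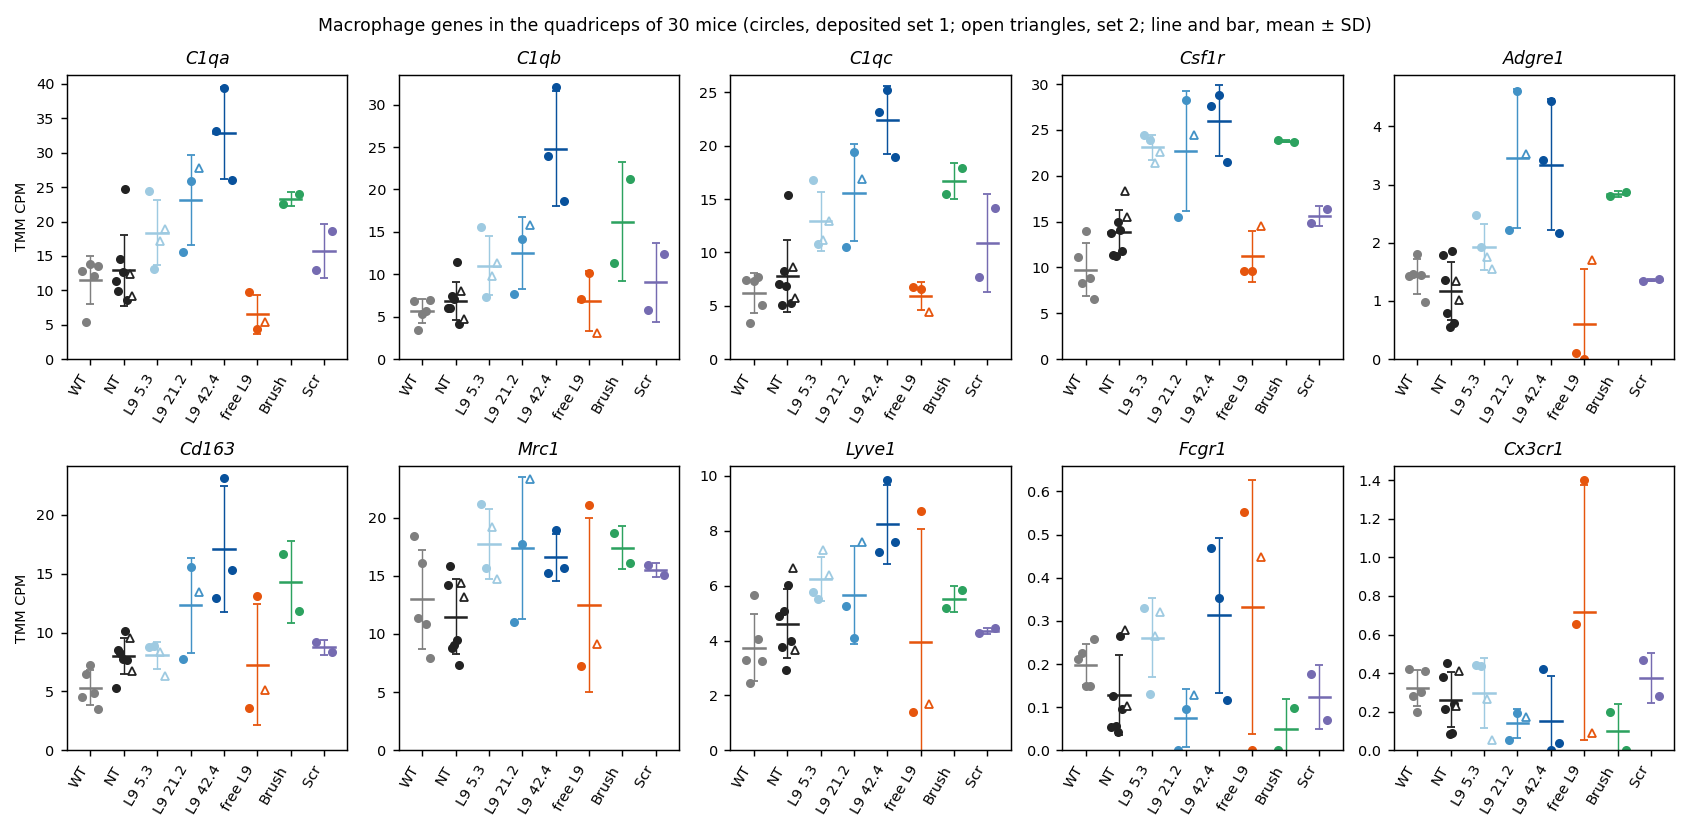
Level of each of the 10 genes in each mouse (y axis, CPM after TMM scaling; x axis, the 8 groups with pacDNA-L9 shortened to L9 and doses in mg/kg). Circles are mice of deposited set 1, open triangles mice of set 2, and lines with bars the mean ± SD. The 3 mice at 42.4 mg/kg lie above all 8 NT mice for C1qa, C1qb, C1qc, Csf1r, Adgre1, Cd163 and Lyve1, and not for Mrc1, Fcgr1 and Cx3cr1.

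The clearest difference was in mice given 42.4 mg/kg of pacDNA-L9, in which all 3 C1q genes were higher than in NT mice. C1qa, the A chain, ran from 8.57 to 24.7 CPM in NT mice (median 11.9) and was 33.2, 39.4 and 26.0 CPM in the 3 mice at 42.4 mg/kg. C1qb, the B chain, ran from 4.14 to 11.4 CPM in NT mice (median 6.56) and was 23.9, 32.1 and 18.6 CPM. C1qc, the C chain, ran from 5.09 to 15.4 CPM in NT mice (median 6.97) and was 23.2, 25.2 and 18.9 CPM. The groups did not overlap for any of the 3 chains, and mouse B was the highest of the treated mice and mouse C the lowest for each. The log2 fold changes were 1.32 (SE 0.28, edgeR adjusted p = 0.00598) for C1qa, 1.81 (SE 0.31, adjusted p = 0.000691) for C1qb and 1.48 (SE 0.27, adjusted p = 0.0016) for C1qc, which are 2.49-fold, 3.5-fold and 2.79-fold. Since this is whole muscle, more macrophages and more RNA of a gene per macrophage cannot be told apart from the level of any single gene.

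The promoters of C1qb and C1qc are shown because the 2 genes moved together, with that of Cd163, which also rose at 42.4 mg/kg, and that of Mrc1, which did not pass the test. RefSeq promoters (250 bases before and 50 after the start site, GRCm38.p6, each written on the strand of its gene) matched 6 of the 10 genes; C1qa, Csf1r, Adgre1 and Lyve1 had no entry. Capitals mark GAGGAA on either strand (TTCCTC where it is on the other strand), the PU box to which the myeloid factor PU.1 binds.
C1qb (chr4:136886151-136886450, minus strand): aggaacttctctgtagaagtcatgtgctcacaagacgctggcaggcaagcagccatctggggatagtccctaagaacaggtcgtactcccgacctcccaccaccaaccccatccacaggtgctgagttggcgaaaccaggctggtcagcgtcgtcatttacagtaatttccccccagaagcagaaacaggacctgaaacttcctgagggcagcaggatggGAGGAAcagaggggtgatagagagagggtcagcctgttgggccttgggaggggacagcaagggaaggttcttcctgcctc
C1qc (chr4:136892865-136893164, minus strand): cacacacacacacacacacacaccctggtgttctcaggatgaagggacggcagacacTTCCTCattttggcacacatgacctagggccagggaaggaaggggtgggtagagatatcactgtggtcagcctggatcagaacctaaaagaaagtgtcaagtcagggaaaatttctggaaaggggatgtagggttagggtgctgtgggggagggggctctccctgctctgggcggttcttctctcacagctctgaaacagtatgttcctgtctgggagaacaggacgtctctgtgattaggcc
Cd163 (chr6:124304401-124304700, plus strand): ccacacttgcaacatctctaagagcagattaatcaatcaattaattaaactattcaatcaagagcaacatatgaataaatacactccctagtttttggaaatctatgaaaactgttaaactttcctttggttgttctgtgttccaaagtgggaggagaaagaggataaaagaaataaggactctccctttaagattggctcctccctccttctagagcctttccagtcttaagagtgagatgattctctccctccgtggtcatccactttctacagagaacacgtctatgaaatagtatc
Mrc1 (chr2:14229164-14229463, plus strand): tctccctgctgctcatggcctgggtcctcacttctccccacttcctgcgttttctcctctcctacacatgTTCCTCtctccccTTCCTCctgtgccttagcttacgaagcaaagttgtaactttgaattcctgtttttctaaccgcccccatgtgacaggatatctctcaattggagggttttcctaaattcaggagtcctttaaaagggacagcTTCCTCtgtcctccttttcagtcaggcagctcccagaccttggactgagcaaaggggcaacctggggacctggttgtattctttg

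GAGGAA was present in the windows of C1qb (bases -30 to -25 from the start site, same strand), C1qc (-193 to -188, opposite strand), Fcgr1 (-55 to -50, opposite strand) and Mrc1 (3 copies, all on the opposite strand), and in 28.3% of the 32851 promoters in the table. The longer GAGGAAGT contains it and was found only in that of C1qc among the 6 (3.2% of all promoters). AGGAAGT, which overlaps GAGGAAGT, was in C1qb, C1qc, Fcgr1 and Mrc1 (9.35% of all promoters), CAGGAAG in C1qb and Mrc1 (13.3%), TTTCCT in Cd163, Cx3cr1 and Mrc1 (29.1%) and GGAA, which all of these ETS-type words contain on 1 strand, in all 6 (96%). The MAF half-site TGCTGA was in C1qb (19.5% of all promoters), while TGCTGAC (4.67%), the AP-1 word TGAGTCA (5.2%), the CRE word TGACGTCA (1.79%) and TATAAA (13.6%) were in none of the 6. The windows of both C1q genes and of Mrc1 thus hold the PU box and that of Cd163 does not. These are matches of letters only.

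Of the surface receptors, Csf1r and Cd163 rose with the C1q genes at 42.4 mg/kg. Csf1r ran from 11.3 to 18.3 CPM in NT mice (median 14.0) and was 27.6, 28.8 and 21.5 CPM, a log2 fold change of 0.97 (SE 0.18, edgeR adjusted p = 0.00201). Cd163 ran from 5.32 to 10.1 CPM in NT mice (median 8.04) and was 12.9, 23.1 and 15.3 CPM, a log2 fold change of 1.06 (SE 0.28, adjusted p = 0.0295). Neither gene's treated mice overlapped the NT mice. Adgre1 ran from 0.546 to 1.85 CPM in NT mice (median 1.19) and was 3.42, 4.43 and 2.17 CPM. Its groups did not overlap either, and the log2 fold change of 1.61 had an SE of 0.48 and an edgeR adjusted p of 0.0667; it was called in 4 of 20 alternatives, among them DESeq2 (1.62, adjusted p = 0.0201).

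The other receptors did not pass the test at 42.4 mg/kg. Lyve1 ran from 2.94 to 6.64 CPM in NT mice (median 4.44) and was 7.22, 9.86 and 7.59 CPM, above all NT mice, with a log2 fold change of 0.86 (SE 0.35, edgeR adjusted p = 0.247). Mrc1 ran from 7.32 to 15.8 CPM in NT mice (median 11.3) and was 15.2, 18.9 and 15.7 CPM, so that only mouse B stood above all NT mice (log2 fold change 0.56, SE 0.28, adjusted p = 0.401). Cx3cr1 had 9, 0 and 1 counts in the 3 treated mice, or 0.422, 0 and 0.0387 CPM, against 0.084 to 0.455 CPM in NT mice, and the 0 counts of mouse B allow up to 0.177 CPM. Its log2 fold change of -0.86 had an SE of 0.84 and a 95% interval from -2.50 to 0.78 (adjusted p = 0.773), so no change was detected. Fcgr1 had 10, 6 and 3 counts against 1 to 6 counts in NT mice; without the filter on low counts its log2 fold change was 1.42 (SE 0.81, adjusted p = 0.652). Floors cover counting error only.

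In all, 5 of the 9 tested genes were called higher at 42.4 mg/kg and 0 lower, where 2.28% of all 17518 genes were called higher and 0.862% lower. For 7 of the 9 the 3 treated mice lay above all 8 NT mice, which held for 3.95% of all genes tested. The median log2 fold change was 1.06 over the 9 genes and -0.02 over all genes. Cd163 kept its call in 10 of 20 alternatives, the fewest of the 5. Within set 1 alone 5 of the 9 were called, but with Adgre1 (edgeR adjusted p = 0.0314) in place of Cd163 (log2 fold change 1.09, adjusted p = 0.0533). Without mouse B 3 of the 9 were called (C1qb, C1qc and Csf1r), and 126 genes in all instead of 550. With the style of library names as a further term 3 were called (C1qc, Csf1r and Adgre1), with C1qa at a log2 fold change of 1.26 (adjusted p = 0.102) and C1qb at 1.35 (adjusted p = 0.108).

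Sex moved with the C1q genes and with the dose group. In NT mice all 4 females were above all 4 males for C1qa (12.4 to 24.7 against 8.57 to 11.4 CPM) and for C1qb (7.05 to 11.4 against 4.14 to 6.06 CPM), and C1qc averaged 9.8 CPM in females and 5.78 CPM in males; all NT females were above all NT males for 2 of the 9 genes tested and for 1.96% of all genes. Csf1r and Adgre1 overlapped between the sexes (11.3 to 18.3 against 11.4 to 15.5 CPM, and 0.546 to 1.85 against 0.626 to 1.79 CPM). The 3 females at 42.4 mg/kg stood above all 4 NT females for 8 of the 9 genes tested, Cx3cr1 excepted, as for 7.84% of all genes tested. With sex as a term the log2 fold changes of C1qa, C1qb and C1qc were 1.19, 1.66 and 1.34 and all 3 were called with Csf1r, while Cd163 was not (edgeR adjusted p = 0.071). Among female mice alone, with 4 NT mice, C1qb was called (1.52, adjusted p = 0.0201), and C1qa (0.98, adjusted p = 0.264), C1qc (1.12, adjusted p = 0.0936), Csf1r (0.83, adjusted p = 0.12) and Cd163 (0.92, adjusted p = 0.285) did not.

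At the lower doses of pacDNA-L9 the means of the 3 C1q genes lay between those of NT mice and of mice at 42.4 mg/kg. C1qa was 24.5, 13.1, 17.1 and 18.9 CPM in the 4 mice at 5.3 mg/kg and 15.6, 25.9 and 27.8 CPM at 21.2 mg/kg. C1qb was 15.6, 7.28, 9.78 and 11.3 CPM at 5.3 mg/kg and 7.71, 14.1 and 15.8 CPM at 21.2 mg/kg. C1qc was 16.8, 10.8, 11.2 and 12.9 CPM at 5.3 mg/kg and 10.5, 19.4 and 16.9 CPM at 21.2 mg/kg. The lower doses of all 3 chains overlapped NT, and at 21.2 mg/kg mouse A, the only male of that group, was the lowest for each.

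At the lowest dose Csf1r was the only one of the genes to exceed NT in every mouse, with a fold change among those of the C1q chains. It was 24.5, 23.9, 21.4 and 22.6 CPM at 5.3 mg/kg, above all 8 NT mice as for 0.228% of all genes tested, and 15.5, 28.3 and 24.4 CPM at 21.2 mg/kg, so that its means were 23.1 CPM at 5.3 mg/kg, 22.7 CPM at 21.2 mg/kg and 26.0 CPM at 42.4 mg/kg. Adgre1 was 2.47, 1.92, 1.76 and 1.55 CPM at 5.3 mg/kg and 2.22, 4.6 and 3.52 CPM at 21.2 mg/kg, where all 3 mice exceeded the NT range, as for 0.565% of all genes tested. Cd163 lay inside the NT range at 5.3 mg/kg, with 8.74, 8.85, 8.33 and 6.35 CPM, and was 7.77, 15.6 and 13.4 CPM at 21.2 mg/kg. Mrc1 was 21.2, 15.7, 19.2 and 14.7 CPM at 5.3 mg/kg and 11.0, 17.7 and 23.3 CPM at 21.2 mg/kg, about the level reached at 42.4 mg/kg.

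With dose entered as a number in a fit of NT and the 3 pacDNA-L9 groups (18 libraries), 7 of the 8 genes tested there rose with dose, where 2.87% of 16661 genes were called higher. Per 10 mg/kg the log2 level rose by 0.41 for C1qb (SE 0.07, edgeR adjusted p = 0.00172), 0.38 for Adgre1 (SE 0.09, adjusted p = 0.0201), 0.34 for C1qc (SE 0.07, adjusted p = 0.00827) and 0.30 for C1qa (SE 0.06, adjusted p = 0.00929). It rose by 0.26 for Cd163 (SE 0.05, adjusted p = 0.00279), 0.20 for Csf1r (SE 0.05, adjusted p = 0.0222) and 0.19 for Lyve1 (SE 0.05, adjusted p = 0.0295). Mrc1, at 0.13 (SE 0.06, adjusted p = 0.239), did not pass, and Cx3cr1 and Fcgr1 were too low to be tested in this fit. This fit shares the NT mice and the mice at 42.4 mg/kg with the comparison above. Without mouse B at 42.4 mg/kg only C1qb (0.36, adjusted p = 0.0236) and Cd163 (0.22, adjusted p = 0.0389) were called; among females alone C1qa, C1qb, C1qc and Cd163 were, and with the style of library names as a term C1qb, C1qc and Adgre1.

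Compared one dose at a time, neither lower dose gave a call among the 9 genes in edgeR or in DESeq2, and few genes of any kind were called. At 5.3 mg/kg against NT 0% of all genes were called by edgeR; 4 of the 9 had an unadjusted p under 0.05 (1.58% of all genes), among them Csf1r with a log2 fold change of 0.69 (SE 0.17, edgeR adjusted p = 1). C1qa, C1qb and C1qc stood at 0.54 (SE 0.27), 0.72 (SE 0.30) and 0.77 (SE 0.26). At 21.2 mg/kg 0.0685% of all genes were called; 7 of the 9 had an unadjusted p under 0.05 (2.21% of all genes), with log2 fold changes of 1.53 for Adgre1 (SE 0.47), 1.02 for C1qc (SE 0.27), 0.91 for C1qb (SE 0.32), 0.86 for C1qa (SE 0.29), 0.70 for Csf1r (SE 0.18), 0.63 for Cd163 (SE 0.28) and 0.57 for Mrc1 (SE 0.28). C1qc was called there when NT 5 was left out (1.22, edgeR adjusted p = 0.0326).

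**Figure D2:**
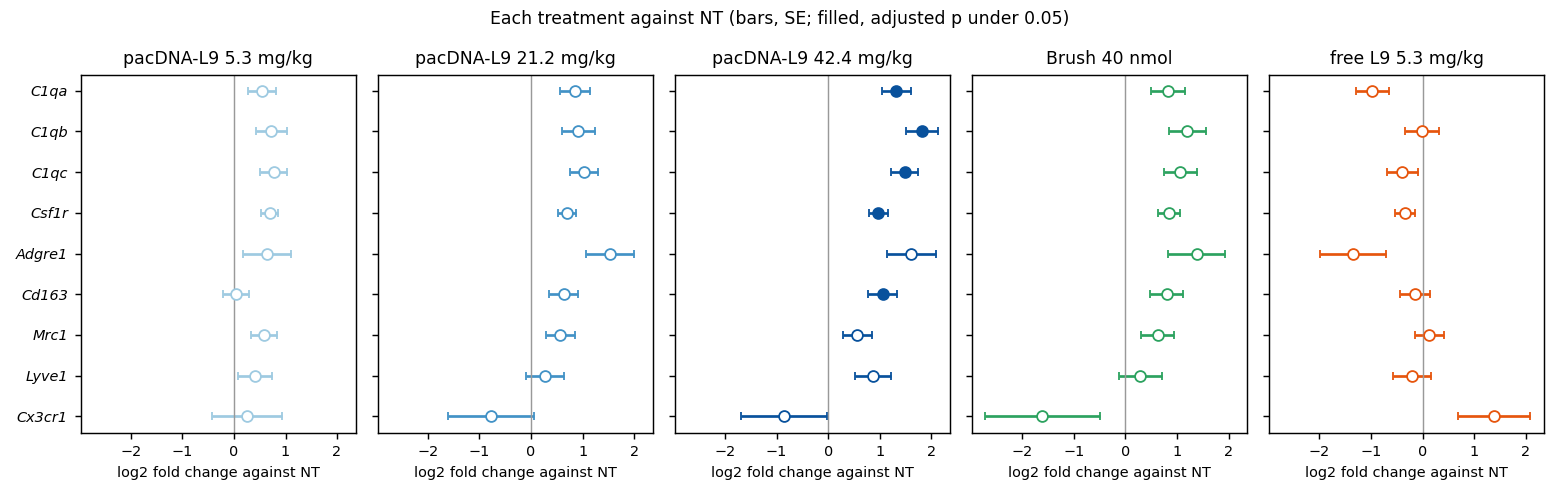
Log2 fold change against NT (x axis) of the 9 genes tested (y axis) for the 3 doses of pacDNA-L9 (mg/kg), Brush at 40 nmol and free L9 at 5.3 mg/kg. Bars are SE, and filled points passed an adjusted p of 0.05. Filled points appear only at 42.4 mg/kg, for C1qa, C1qb, C1qc, Csf1r and Cd163.

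The polymer without oligonucleotide gave levels in the range of the pacDNA-L9 groups. In the 2 Brush mice C1qa was 22.6 and 24.0 CPM, C1qb 11.3 and 21.2 CPM and C1qc 15.5 and 17.9 CPM. Csf1r was 23.9 and 23.7 CPM, Adgre1 2.8 and 2.87 CPM and Cd163 16.7 and 11.8 CPM. Both Brush mice exceeded all NT mice for C1qc, Csf1r, Adgre1, Cd163 and Mrc1, the last with 18.7 and 16.1 CPM, and neither did for C1qa, Lyve1, Fcgr1 and Cx3cr1. The 5 are among the 9 genes tested, and both Brush mice were above all NT mice for 1.51% of all genes tested. The log2 fold changes against NT were 1.38 for Adgre1 (SE 0.56), 1.20 for C1qb (SE 0.36), 1.06 for C1qc (SE 0.32), 0.85 for Csf1r (SE 0.21), 0.82 for C1qa (SE 0.33), 0.80 for Cd163 (SE 0.32) and 0.63 for Mrc1 (SE 0.32). Brush B is male and named by group and running number. C1qb stood at 0.66 without it, 0.39 among females alone and 0.94 with the style of names as a term, and over the 19 alternatives C1qb ranged from 0.39 to 1.58, C1qa from 0.45 to 1.05 and C1qc from 0.61 to 1.30. With 2 mice 0 of the 9 genes and 0% of all genes were called by edgeR and 0 of the 9 by DESeq2; 6 of the 9 had an unadjusted p under 0.05, against 1.88% of all genes.

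For the C1q chains and Csf1r, the means of the polymer with a scrambled oligonucleotide and of the oligonucleotide without polymer were below those of Brush. In the 2 pacDNA-Scr mice C1qa was 12.9 and 18.6 CPM, C1qb 5.74 and 12.4 CPM, C1qc 7.67 and 14.2 CPM and Csf1r 14.9 and 16.4 CPM, with Csf1r, C1qa and C1qc inside the NT range. Against NT 0 of the 9 genes and 0% of all genes were called, 0 of the 9 had an unadjusted p under 0.05 in edgeR, and DESeq2 called 0; the median log2 fold change of the 9 was 0.32. Pairing pacDNA-Scr with pacDNA-L9 at the same 5.3 mg/kg gave 0 of 9 called, 0% of all genes and 0 of 9 with an unadjusted p under 0.05. For Csf1r the difference was 0.45 on the log2 scale in favour of pacDNA-L9, with a 95% interval from -0.04 to 0.94, and for C1qc 0.31 with an interval from -0.43 to 1.06, so these mice did not resolve whether the 2 conjugates differ.

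In the 3 mice given free L9, C1qa was 9.71, 4.38 and 5.45 CPM, C1qc 6.79, 6.57 and 4.38 CPM and Csf1r 9.66, 9.6 and 14.5 CPM. C1qb was 7.14, 10.2 and 3.13 CPM and was highest in mouse B, the library with the fewest genes at equal depth, in which Adgre1 had 0 counts, allowing up to 0.168 CPM. The same mouse B was above all NT mice for Cd163 (13.1 CPM), Mrc1 (21.1 CPM), Lyve1 (8.7 CPM) and Cx3cr1 (1.4 CPM). Mice A and C had 3.62 and 5.1 CPM of Cd163, 7.29 and 9.12 CPM of Mrc1, 1.41 and 1.7 CPM of Lyve1 and 0.654 and 0.0894 CPM of Cx3cr1, of which only the Cx3cr1 level of mouse A was above all NT mice. Against NT 0 of the 9 genes were called by edgeR or DESeq2, where 0.942% of all genes were called by edgeR, and 2 had an unadjusted p under 0.05: C1qa with a log2 fold change of -0.97 (SE 0.32, edgeR adjusted p = 0.151) and Adgre1 with -1.34 (SE 0.64, adjusted p = 0.348). Adgre1 had 2, 0 and 19 counts in mice A, B and C, and was called lower without mouse C (-4.35, edgeR adjusted p = 0.00257) and in set 1 alone (-4.30, adjusted p = 0.0128), fitted values that depend on the prior count. At the same nominal dose of 5.3 mg/kg pacDNA-L9 exceeded free L9 for C1qa (log2 fold change 1.51, SE 0.36, edgeR adjusted p = 0.04) and Csf1r (1.03, SE 0.22, adjusted p = 0.0204). These are 2 of the 9 genes, where 0.194% of all genes were called higher. C1qa was called in 6 of 17 alternatives (adjusted p between 0.00219 by DESeq2 and 1 by edgeR with a replicate block) and Csf1r in 10 of 17 (between 0.000631 and 1, from the same alternatives). C1qa lost its call in edgeR, with log2 fold changes of 1.33 to 1.54 against the 1.51 of all mice, in set 1 alone (adjusted p = 0.139), among females (0.157), with no filter (0.0785) and without mouse A (0.133), C (0.102) or D (0.0946) of pacDNA-L9 or mouse C of free L9 (0.0621). Csf1r lost its call among females (1.27, adjusted p = 0.0841) and without mouse A (0.95, adjusted p = 0.0601), B (0.96, 0.0696) or C (1.10, 0.058) of pacDNA-L9, and without A or without C 0 of the 9 genes were called. With the style of library names as a term, or without the deposited set as a term, 0 of the 9 were called, with C1qa at 1.56 and 1.49 and Csf1r at 0.86 and 1.04. Free L9 C, the only free L9 library of set 2, is the one that differed from the rest of that set in mitochondrial counts; without it Csf1r was called (1.18, edgeR adjusted p = 0.016) and C1qa was not (1.42). Without free L9 B, 2 genes were again called, Csf1r (0.98, adjusted p = 0.0337) and Lyve1, and C1qa was not (1.29, adjusted p = 0.116).

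None of the 9 genes was called between untreated HSA-LR20b mice and WT. C1qa ran from 5.45 to 13.8 CPM in WT mice, C1qb from 3.48 to 6.93 CPM, C1qc from 3.43 to 7.7 CPM, Csf1r from 6.58 to 14.0 CPM and Cd163 from 3.54 to 7.22 CPM, and all overlapped NT. Of the 9 genes 0 were called by edgeR or DESeq2, where edgeR called 5.31% of all genes; 2 had an unadjusted p under 0.05, Csf1r with a log2 fold change of 0.44 (SE 0.16, edgeR adjusted p = 0.138) and Cd163 with 0.63 (SE 0.26, adjusted p = 0.19). The values of C1qb and C1qc were 0.33 (SE 0.29) and 0.37 (SE 0.25). In the other lists the genes called between NT and WT included the lysosomal macrophage marker Cd68 (1.54, SE 0.30, adjusted p = 0.00163), Clu (-1.21, SE 0.27, adjusted p = 0.00538) and Mb (1.36, SE 0.25, adjusted p = 0.000944). Cd68 was the only one of 24 other macrophage genes called there, where 12 of the 24 had a positive log2 fold change, with a median of 0.01. Mice at 42.4 mg/kg also exceeded WT in C1qb (log2 fold change 2.13, SE 0.34, edgeR adjusted p = 0.000114), C1qc (1.86, SE 0.30, adjusted p = 0.000116), C1qa (1.51, SE 0.31, adjusted p = 0.00156), Cd163 (1.69, SE 0.30, adjusted p = 0.000405) and Csf1r (1.41, SE 0.20, adjusted p = 1.85e-05). These 5 of the 9 genes were called higher than WT, where 6.13% of all genes were, and each kept that call in all 17 alternatives run for this comparison; the comparisons with WT and with NT share the treated mice.

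Levels were also taken relative to Csf1r in the same mouse, and that of C1qb also differed with the style of library names and between all NT mice and NT females. On the log2 scale C1qb was -1.05 relative to Csf1r on average in NT mice (range -1.69 to -0.30, n = 8) and -0.09 at 42.4 mg/kg (range -0.21 to 0.16, n = 3), a difference of 0.97, and the groups did not overlap; against the 4 NT females alone the difference was 0.70. The libraries at 42.4 mg/kg are all named by group and running number, and outside that dose the 6 set 1 libraries named so averaged -0.39 (range -1.49 to 0.08) against -0.99 (range -1.70 to -0.30) in the 15 others. With the style of names as a term the edgeR log2 fold change at 42.4 mg/kg was 1.35 for C1qb and 1.19 for Csf1r, against 1.81 and 0.97 without it. C1qc went from -0.90 to -0.21 (difference 0.69) and C1qa from -0.16 to 0.33 (difference 0.49), with overlap through NT 5 for C1qc and through NT 3 and NT 5 for C1qa. Against NT females alone these differences were 0.42 and 0.24. Cd163 differed by 0.16, Lyve1 by -0.05 and Mrc1 by -0.34, all overlapping NT. Within the C1q genes, C1qb relative to C1qa stood at -0.89 in NT mice and -0.42 at 42.4 mg/kg, without overlap, but outside that dose it averaged -0.33 (range -1.03 to 1.19) in the 6 set 1 libraries named by group and running number and -0.93 (range -1.36 to -0.63) in the 15 others. Measured against C1qc, Mrc1 stood at -0.43 at 42.4 mg/kg, against 0.60 on average in NT mice and 0.13 in NT females, and Lyve1 at -1.44, against -0.70 and -0.90, with overlap in both. Adgre1 relative to Csf1r differed from NT by 0.02 at 5.3 mg/kg, 0.86 at 21.2 mg/kg (without overlap) and 0.59 at 42.4 mg/kg (with overlap), and untreated WT mice stood 0.89 above NT. At 21.2 mg/kg C1qa, C1qb and C1qc differed by 0.19, 0.18 and 0.36, and at 5.3 mg/kg by -0.20, -0.06 and 0.05, with Cd163 at -0.72 there, all 4 overlapping NT at 5.3 mg/kg. In the Brush mice C1qb relative to Csf1r was -1.08 in mouse A, close to the NT average, and -0.16 in mouse B, while C1qc differed from NT by 0.39 and Mrc1 by -0.15 on average. These ratios are given without a test.

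**Figure D3:**
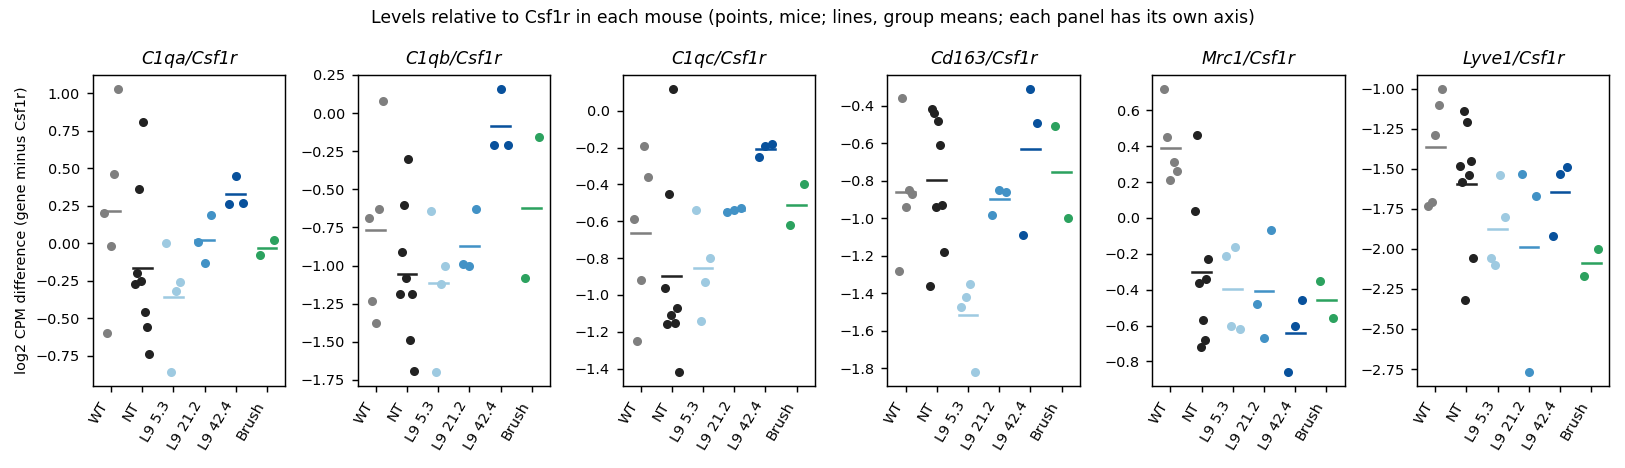
Log2 CPM of 6 genes minus log2 CPM of Csf1r in each mouse (y axis, a prior count of 2 added; each panel has its own axis) by group (x axis). Points are mice and lines group means. C1qb at 42.4 mg/kg lies between -0.21 and 0.16, above all NT mice, as do Brush B at -0.16 and the unnumbered WT mouse at 0.08. Mrc1, Lyve1 and Cd163 at 42.4 mg/kg overlap NT. Free L9 and pacDNA-Scr mice are not drawn, and C1qb of free L9 B was also at 0.08.

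Across the 24 libraries of set 1 the 3 C1q chains followed each other closely, with Pearson's r between 0.8 and 0.917 on the log2 scale, and between 0.937 and 0.961 without the 2 free L9 libraries of that set. Within the 8 NT mice r was 0.907 to 0.965. Csf1r had r from 0.752 to 0.876 with the C1q chains over the 24 libraries, but from 0.124 to 0.301 within NT. Mrc1 had r of 0.281 to 0.48 with the chains and 0.465 to 0.535 without the 2 free L9 libraries, and Cx3cr1 -0.574 to -0.392 and -0.469 to -0.403. The 8 genes outside the set with the highest r to the mean of the C1q chains, among 13342 candidates, were Lyz2 (0.934), Ctss (0.909), Laptm5 (0.904), Grn (0.884), Ms4a4a (0.874), Lgals3 (0.873), Ccl6 (0.865) and Wfdc17 (0.86). Csf1r ranked 14, Cd163 98, Adgre1 190, Lyve1 248 and Mrc1 994 in that order. The points share treatment groups and styles of library names, so these values describe likeness over these libraries only. The 3 mice at 42.4 mg/kg, the group with the highest means of the C1q genes, are among these libraries, so a high level there was part of the choice and is given as a description. The largest log2 fold changes of the 8 were those of Wfdc17 (4.05, SE 0.43), Ms4a4a (3.11, SE 0.46), Ctss (2.87, SE 0.31) and Ccl6 (2.83, SE 0.34).

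Of 24 other genes of the macrophage lineage, 9 were called higher and 0 lower at 42.4 mg/kg, against 2.28% and 0.862% of all genes, and 20 of the 24 had a positive log2 fold change, with a median of 0.93 against -0.02 over all genes; the 4 below 0, named after their values were seen, were Timd4 (-0.15, SE 0.73), Gas6 (-0.01, SE 0.21), Pf4 (-0.51, SE 0.35) and Maf (-0.69, SE 0.20, edgeR adjusted p = 0.0613). The largest were Ms4a7 (3.11, SE 0.37, edgeR adjusted p = 7.33e-06), Ctss, which encodes the lysosomal protease cathepsin S, Trem2, a lipid-sensing receptor (2.58, SE 0.48, adjusted p = 0.0016), and Lyz2, the macrophage lysozyme (2.53, SE 0.26, adjusted p = 1.83e-06). Lyz2 was 19.8 to 45.1 CPM in NT mice and 124 to 189 CPM at 42.4 mg/kg, and Trem2 0.21 to 1.93 against 2.56 to 5.72 CPM. Spi1, which encodes PU.1, also named after its value was seen, was at 0.42 (SE 0.27, adjusted p = 0.592). This list, like the others, was chosen with earlier results of these data known, so its counts are given as a description. Of the 24, 7 were called higher with the style of library names as a term, 5 among females alone and 7 without mouse B. In 4 alternatives 9 were called higher and 1 lower: sex as a term, DESeq2, scaling by library size alone and no filter on low counts. Ms4a7, Ctss and Lyz2 were called in all 20 alternatives, and Trem2 in 19 (not among females alone, adjusted p = 0.0939).

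Some partners of these genes were called at 42.4 mg/kg, where 2.28% of all genes were called higher. Of 19 further complement genes tested, 4 were called higher and 0 lower. Among them were C5ar1, the receptor for C5a (1.51, SE 0.36, edgeR adjusted p = 0.0135), C4b (1.41, SE 0.31, adjusted p = 0.00725) and Serping1, the C1 inhibitor (0.76, SE 0.17, adjusted p = 0.00905). Of 4 other Fc receptor genes tested, 2 were called higher, the inhibitory receptor gene Fcgr2b (2.00, SE 0.39, adjusted p = 0.00247) and Fcgr3 (1.89, SE 0.48, adjusted p = 0.0231). Of 9 ligands and partners, 1 was called higher, Hmox1, which degrades the haem that CD163 brings in (1.10, SE 0.25, adjusted p = 0.00988). Csf1 and Il34, which encode the ligands of CSF1R, were at -0.25 (SE 0.19) and -0.26 (SE 0.30), and Cx3cl1, the fractalkine gene, at 0.26 (SE 0.43), none of them called. Of the complement genes 1 was called higher with the style of names as a term, 0 among females alone and 0 without mouse B. C5ar1, C4b and Serping1 were each called in 17 of 20 alternatives, Hmox1 in 16, Fcgr2b in 19 and Fcgr3 in 14, and none of these 6 among females alone (edgeR adjusted p from 0.0919 to 0.228).

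Markers of other cells were read beside these results, and their part in them was not tested. Lyve1 and, to a lesser degree, Mrc1 are also expressed by lymphatic endothelium. Of its 6 markers 0 were called, with log2 fold changes of -0.14 for Ccl21a (SE 0.32), -0.34 for Flt4 (SE 0.28), 0.42 for Mmrn1 (SE 0.53), 0.20 for Pdpn (SE 0.34), 0.75 for Prox1 (SE 0.41) and 0.04 for Reln (SE 0.39), and their summed level was 12.7 to 28.7 CPM in NT mice and 19.3 to 28.5 CPM at 42.4 mg/kg. Of 8 genes of recruited monocytes and inflammation that could be tested, 1 was called, Gpnmb (1.69, SE 0.35, edgeR adjusted p = 0.00518); the summed level of the list's 13 genes was 9.12 to 15.6 CPM in NT mice and 20.5 to 24.8 CPM at 42.4 mg/kg. Their median log2 fold change was -0.32, with 3 of 8 positive. This median was -0.85 without mouse B at 42.4 mg/kg (7 genes tested) and 0.04 without mouse C. Ccr2, the chemokine receptor of recruited monocytes, named after its value was seen, was at -0.25 (SE 0.44, adjusted p = 0.918). Of 3 neutrophil markers tested S100a8 was called (3.64, SE 0.97, adjusted p = 0.0355), at 0 to 0.289 CPM in NT mice and 0.234 to 1.89 CPM at 42.4 mg/kg, with Ly6g and Mpo, named after their values were seen, at 0 counts in all 3 treated mice. The summed level of the 6 neutrophil markers was 0.0848 to 1.25 CPM in NT mice and 0.469 to 3.42 CPM at 42.4 mg/kg. Of the 8 markers of T and NK cells only Cd4 could be tested and it was called (3.74, SE 0.69, adjusted p = 0.00208), at 0 to 0.325 against 1.27 to 1.59 CPM, while Cd8a, Trac and Ncr1, named likewise, had 0 counts in all 3 treated mice. Cd4 was low in NT mice, and treated mice with higher levels helped it pass the filter on low counts. Its call is therefore a description, and 2.28% of all genes were called higher. The summed level of these 8 was 0 to 1.9 CPM in NT mice and 1.69 to 1.94 CPM at 42.4 mg/kg. Of 5 proliferation genes 0 were called (median 0.14), and likewise 0 of 5 dendritic cell markers (median 0.52), 4 mast cell markers (median 1.16), 1 B cell marker (-0.27), 6 muscle fibre markers (median 0.03), 6 blood endothelium, 6 fibro-adipogenic, 5 mural, 4 satellite, 4 Schwann and 4 adipocyte markers (median -1.49). Leaving out NT 4 moved the adipocyte median to -0.18. The summed level of the 4 adipocyte markers was 7.08 to 343 CPM in NT mice and 20.2 to 25.8 CPM at 42.4 mg/kg. Without mouse C at 42.4 mg/kg the dendritic cell median was 0.05. The summed level of the dendritic cell list was 7.76 to 10.2 CPM in NT mice and 10.5 to 15.3 CPM at 42.4 mg/kg, without overlap, and that of the mast cell list 4.12 to 7.48 and 7.01 to 9.14 CPM, with 1 of its 4 genes called higher in the dose trend. Among 4 red blood cell markers Hba-a2 was called (3.84, SE 0.83, adjusted p = 0.00779), although its level was 0 to 121 CPM in NT mice and 0.0591 to 2.21 CPM at 42.4 mg/kg. Over 20 alternatives Gpnmb was called in 17, Cd4 in 19, S100a8 in 6 and Hba-a2 in 15, with log2 fold changes of Hba-a2 from -4.64 to 4.45, and among females alone none of the 4 was called.

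**Figure D4:**
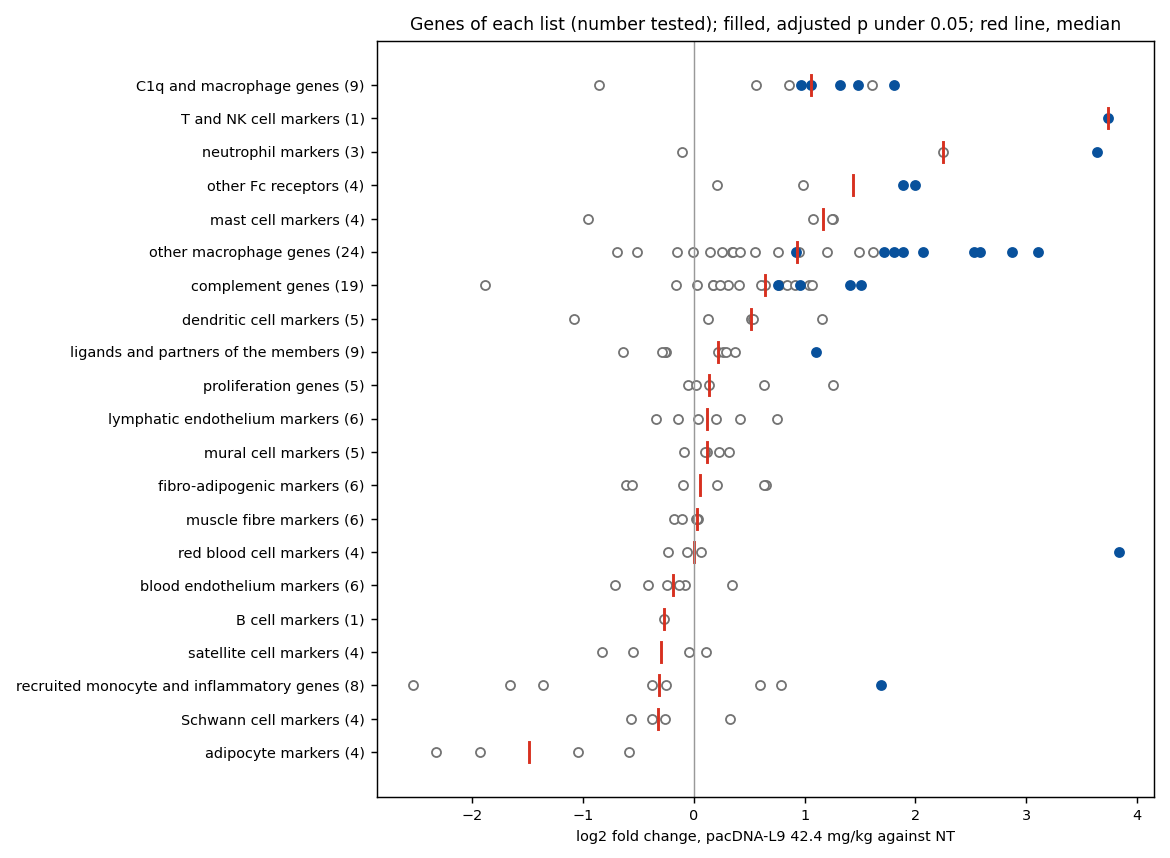
Log2 fold change at 42.4 mg/kg against NT (x axis) for every tested gene of each list (y axis, with the number tested). Filled points passed an adjusted p of 0.05 and red lines are medians. The C1q and macrophage genes have a median of 1.06, the other macrophage genes 0.93, lymphatic endothelium markers 0.12 and adipocyte markers -1.49 (-0.18 without NT 4).

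L9 pairs with CUG repeats, so the annotated transcripts of the genes (GENCODE vM39) were searched for runs of at least 3 CTG triplets, CTGCTGCTG, on the transcript strand. Such a run was found in 20.9% of the 17420 tested genes that have an annotated transcript, and in 3 of the 10 genes here. C1qc holds a run of 4 triplets in all 6 of its transcripts, Csf1r 3 triplets in 8 of 9 and Mrc1 3 triplets in 3 of 6. Of these C1qc and Csf1r were called higher at 42.4 mg/kg and Mrc1 was not called, while C1qa, C1qb and Cd163, also called higher, hold none. None of these 3 genes was called lower in any pacDNA-L9 group by the test.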

How the data were processed

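Poly(A) RNA of quadriceps from 30 mice was sequenced as 150-base paired-end reads. The deposited values are raw read counts per gene, which the authors made by aligning reads with HISAT2 (version 2.0.5 in the submitters' processing notes) to GRCm39; whether counting used strand is not given in the sources used here. Gene models of GENCODE vM39 matched 56017 of the 56748 identifiers. Counts were analysed in R 4.3.3 with edgeR 4.0.16 (TMM scaling, filterByExpr by group, robust quasi-likelihood test, 1 coefficient per group plus the deposited set, Benjamini-Hochberg adjustment over all genes tested), with DESeq2 1.42.0 as an alternative. The dose trend used NT and the pacDNA-L9 groups only. Log2 CPM carried a prior count of 2. The scripts were tested on simulated data. Depth was 13605309 to 26956558 counts per library; a floor is 3 counts in a library, and 95% intervals are 1.96 SE to each side. Each library is 1 mouse. One WT column could not be tied by its name to a single WT sample and is used as a member of its group only, without a replicate number (the unnumbered WT mouse). Members and lists were chosen with earlier results of these data known. Named were all 10 members, of each list at most 4 genes with the largest change among those called at 42.4 mg/kg against NT and in NT against WT, the lymphatic markers, Csf1, Il34 and Cx3cl1, and the 8 genes most like C1q; some genes that this rule names are not reported here, Acta1 and Hmgxb3 were added as a tissue check and an overlapping gene, and other genes outside it are marked as named after their values were seen. Alternatives covered the set term, set 1 alone, DESeq2, other scaling, no filter, sex, the style of library names, the replicate number as a block and leaving out each mouse; female mice alone was added after seeing the data. Sequences were read in Python 3.11.15 with pandas 2.3.3.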

Additional observations from a re-analysis of the deposited data

Results flagged for a closer look

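Of 30 groups of 4 to 10 mice examined, 3 held a mouse whose gap to its nearest neighbour was large for the range of its group by Dixon's criterion, which chance alone meets in about 1 of 20 groups. C1qa was 5.45 CPM in WT 2, against 12.1 CPM in the nearest of the 5 WT mice. C1qa was 24.7 CPM in NT 5, against 14.6 CPM in the nearest of the 8 NT mice, and C1qc was 15.4 CPM in the same mouse, against 8.68 CPM. NT 5 was a female. Leaving it out raised the count of genes called at 42.4 mg/kg from 5 to 6, with Adgre1 added (log2 fold change 1.79, edgeR adjusted p = 0.0482), and gave 1 call at 21.2 mg/kg, C1qc.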

How the results depend on the processing

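Over all comparisons, 195 of 219 alternative counts of members called lay within 1.5 times of the count reported or were 0 like it, 17 were lower than that and 7 higher. Alternative log2 fold changes were tallied for 55 values only, not for every gene in every comparison. Of these 1130 alternatives 1058 kept direction and side of the threshold, and 60 lost and 11 gained a call. In this tally 1 reversed, that of Lyve1 at 21.2 mg/kg against NT among females (-0.00). Outside it, Cd163 for pacDNA-L9 against free L9 at 5.3 mg/kg ran from -0.17 to 0.92 over the alternatives, against 0.17 in the main fit. At 42.4 mg/kg against NT (5 called, 550 genes in all), the style of library names as a term left 3 (240 genes) and females alone 1 (149 genes), and leaving out single mice gave 3 to 6 (126 genes without 42.4 mg/kg B). For the dose trend (7 called, 730 genes) set 1 alone gave 4, sex as a term 4, females alone 4 and the style of names 3 (50 genes), and leaving out single mice gave 2 to 7 (160 genes without 42.4 mg/kg B, 387 without C); 443 genes were called without the set term and 1162 by DESeq2. For pacDNA-L9 against free L9 at 5.3 mg/kg (2 called, 126 genes) no set term gave 0 (2 genes), DESeq2 4 (409 genes), no filter 1, the style of names 0, females alone 1 (11 genes) and leaving out single mice 0 to 2 (13 to 651 genes). For free L9 against NT (0 called, 165 genes) set 1 alone gave 1 (Adgre1, 354 genes) and leaving out single mice 0 to 1: C1qa without free L9 A (1360 genes), Lyve1 without B (268 genes), Adgre1 without C (1147 genes); without the set term 22 genes were called, by DESeq2 526, in females alone 9 and 58 and 59 without NT 7 and NT 8. Leaving out single mice gave 0 to 1 for NT against WT (Csf1r without WT 3, 0.61, edgeR adjusted p = 0.0329) and 0 to 1 at 21.2 mg/kg against NT (C1qc without NT 5; 2 to 20 genes against 12, with 2 in set 1 alone, 3 in females alone and 19 by DESeq2). Where edgeR called 0 genes, DESeq2 called 5 at 5.3 mg/kg and 5 for Brush, no filter gave 1 and 2, sex as a term 4 for Brush and females alone 1 for pacDNA-Scr. Females alone gave 389 genes for NT against WT (930 reported). At 42.4 mg/kg against WT (1749 genes) the style of names gave 1049 and leaving out mouse B 912. The cause of these changes was not tested, beyond the smaller number of mice in some of them.

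With the replicate number as a block, 0 members and 631 genes were called for NT against WT, 0 members and 0 genes for pacDNA-L9 against free L9, and 0 members and 5 genes for pacDNA-L9 against pacDNA-Scr. WT and NT mice of the same number had correlated deviations of 0.189, 0.000416, 0.0391 and 0.205 for numbers 1 to 4, and mice A and B of pacDNA-L9 at 5.3 mg/kg had 0.174 and 0.174 with free L9 and 0.116 and 0.116 with pacDNA-Scr; not every WT and NT pair passed 0.1 and the other comparisons have 2 pairs, so the samples are taken to share only a number. Fcgr1 and Cx3cr1, at 0 to 11 counts of Fcgr1 per library, are limited by depth, and groups of 2 mice limit Brush and pacDNA-Scr.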
